A study of Canis lupus familiaris with 22 samples.

Results

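Phospholipid scramblases move lipids between the leaflets of a membrane. The members chosen were the genes *PLSCR1*, *PLSCR2*, *PLSCR3*, *PLSCR4*, *ANO6* and *XKR8*, found by their names in the scanner files of a canine whole-genome array. The rule found 5 probes of 4 of the 6 genes, among 43603 probes with 34382 different names, and all 5 passed the filter on dim probes. The names *PLSCR1* and *PLSCR2* stood on no probe, but the probe named LOC611500 carries the gene number that the RefSeq table (assembly UU_Cfam_GSD_1.0) pairs with *PLSCR1*. It is described beside the members as *PLSCR1* (LOC611500), a choice made after the files were seen.

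Gene expression in whole blood was measured in 8 healthy dogs (ctrl) and in 7 dogs with canine atopic dermatitis (cAD), an itching allergic skin disease. The same 7 cAD patients were sampled before allergen-specific immunotherapy (ASIT), named 0, and after 6 months of it, named 6 months. The patients were privately owned dogs of several breeds and the ctrl dogs came from a veterinary blood bank; ASIT was a course of subcutaneous allergen extracts chosen by skin test for each patient, with individual changes to the schedule. The labels name whole blood, while the study's methods speak of peripheral blood nuclear cells. Each of the 22 arrays carried the Cy5-labeled RNA of 1 dog and a Cy3-labeled common reference, a pool of 13 healthy dogs that were not otherwise studied, with no dye swap. The log2 ratio of Cy5 over Cy3 is the level reported for each probe, so that 0 means the level of the pool.

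In resting cells phosphatidylserine is kept on the inner leaflet of the plasma membrane by flippases, which are P4-ATPases. Scramblases collapse this asymmetry. ANO6 (TMEM16F) is the calcium-activated scramblase of platelets, where exposed phosphatidylserine supports clotting, and XKR8 is activated by caspase cleavage and exposes phosphatidylserine on apoptotic cells for engulfment. PLSCR1 is an interferon-inducible palmitoylated membrane protein, PLSCR3 is known from mitochondria, and PLSCR1 and PLSCR4 have been described as binding partners of SLPI, a secreted protease inhibitor, and of CD4, the co-receptor of T helper cells. In blood RNA, fewer cells of a type and less RNA per cell cannot be told apart.

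The probes of the PLSCR family are shown because 3 related genes were read by separate oligonucleotides whose sequences overlap in part. Capitals in the *PLSCR4* and *PLSCR1* probes mark bases identical to the *PLSCR3* probe in the best ungapped alignment, and capitals in the *PLSCR3* probe mark bases shared with either of the others. All run 5′ to 3′.
PLSCR3: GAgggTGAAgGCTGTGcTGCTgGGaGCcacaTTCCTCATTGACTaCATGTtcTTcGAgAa
PLSCR4: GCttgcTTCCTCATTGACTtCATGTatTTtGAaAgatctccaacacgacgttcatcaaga
PLSCR1 (LOC611500): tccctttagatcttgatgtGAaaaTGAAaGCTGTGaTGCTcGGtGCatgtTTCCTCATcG
The *PLSCR4* probe matched the *PLSCR3* probe at 25 of 35 aligned bases with a longest shared run of 13 bases, and the *PLSCR1* (LOC611500) probe matched it at 29 of 41 aligned bases with a longest run of 8 bases. Each of the 3 probes holds at least 1 reading frame without a stop codon. Cross-hybridization between the family members was not tested.

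On canFam3.1, the build named in the file headers, all 6 probes lie on the minus strand. The *PLSCR4* probe spans chr23:41415207-41415947. Its 60 bases cover 741 bases of genome, so that 681 bases in between are not in the probe. The *PLSCR1* (LOC611500) probe lies at chr23:41644064-41644123, 228 kb away on the same chromosome. The *PLSCR3* probe spans chr5:32327512-32327756, with 185 bases in between, and its description in the files is that of a readthrough transcript with the neighboring gene *TMEM256*, so that the level can belong to either transcript. *XKR8* is read at chr2:72420853-72420912. *ANO6* has probes at chr27:8883483-8883542 (the brighter) and chr27:8885760-8885819 (the second probe). The annotation of this build was not used here, so that exon and untranslated region are not given.

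The share of probes that the scanner software set well above background in Cy5 was 83.7% to 92.2% on the ctrl arrays, 53.3% to 87.4% at 0 and 57.2% to 81.6% at 6 months. The ctrl arrays were on slides 1 and 2, which held no cAD array and were scanned apart from the others, so slide or scan and group cannot be told apart in both comparisons with ctrl. Slide 5 held only the arrays of dogs 5, 6 and 7 at 0. Slide 6 held only those of dogs 4, 5, 6 and 7 at 6 months and was scanned on another day. For these dogs slide or scan and time point cannot be told apart either. Among markers of blood cells, 6 of 6 leukocyte, 9 of 9 neutrophil and 11 of 11 T cell probes were well above background on all 22 arrays, as were 10 of 11 monocyte, 7 of 9 platelet, 6 of 7 erythroid and 4 of 6 B cell probes. Of the lists for epidermis and endothelium, meant as tissues that blood lacks, 4 of 10 and 8 of 12 probes were so too. The endothelium list holds *PECAM1* and *VWF*, which blood cells can also express. No probe of any marker list was called in any comparison (limma, Benjamini-Hochberg adjusted over 38287 tested probes).

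The member probes differed in how well they were measured. Cy5 was well above background on all 22 arrays for *XKR8*, both *ANO6* probes and *PLSCR1* (LOC611500), and on 21 arrays for *PLSCR3*. *PLSCR4* was the weakest: Cy5 was well above background on 15 arrays (7 of 8 ctrl, 5 of 7 at 0, 3 of 7 at 6 months) and the Cy3 reference on 4 (2, 1 and 1). Its median Cy5 signal stood at percentile 26.7 of all probes, and that of the brighter *ANO6* probe at percentile 88.7, a ranking of probe brightness that is no order of transcript abundance.

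*PLSCR4* had its highest mean ratio at 0, and so had *XKR8*, on a better measured probe. No member was called in any of the 3 comparisons. In 0 vs. ctrl, 0 of 5 member probes were called against 0.0418% of all tested probes, and 2 of 5 (*PLSCR4* and *XKR8*, both higher at 0) passed an unadjusted p under 0.05, which 11.7% of all tested probes did (3.81% higher and 7.93% lower at 0). In 6 months vs. ctrl, 0 of 5 passed adjusted or unadjusted, and the shares over all tested probes were 0% and 7.2%. In 0 vs. 6 months, 0 of 5 were called (0% of all probes), while the same pair passed unadjusted, beside 5.96% of all tested probes (2.15% higher at 0). Both comparisons with ctrl use the same 8 ctrl arrays, and both comparisons with 0 use the same 7 arrays.

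**Figure D1:**
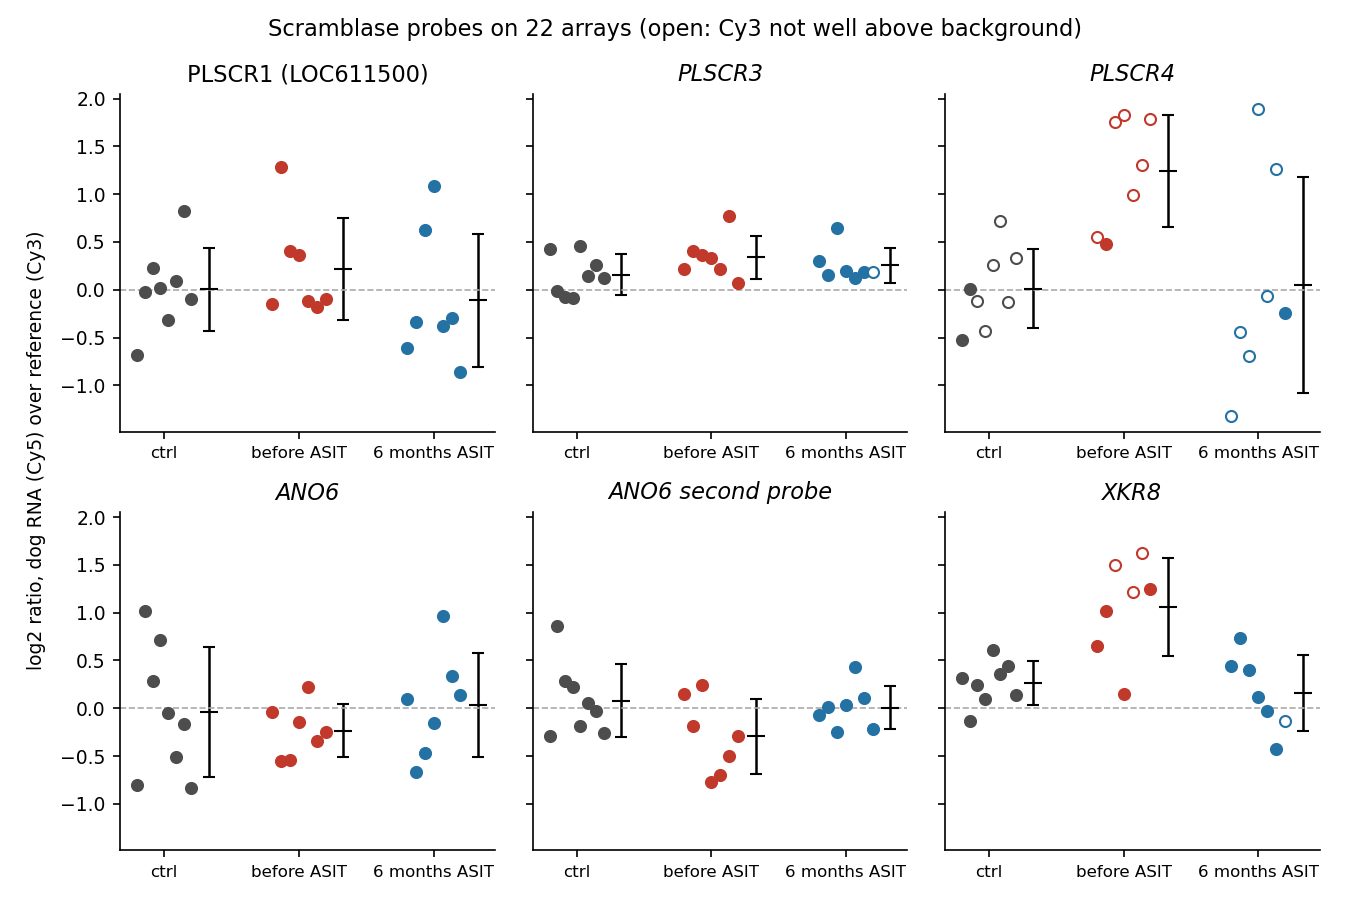
The log2 ratio of Cy5 (dog) over Cy3 (reference) for each scramblase probe, 1 point per array, in 8 ctrl dogs and 7 cAD patients at 0 and at 6 months; bars give the mean ± SD, and open points mark arrays where Cy3 was not well above background. *PLSCR4* and *XKR8* stand higher at 0, and for *PLSCR4* the Cy3 reference was well above background on 4 of 22 arrays.

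The log2 ratio of *PLSCR4* ranged from -0.53 to 0.72 (median -0.05) in ctrl, from 0.48 to 1.83 (median 1.31) at 0 and from -1.32 to 1.89 (median -0.25) at 6 months. At 0, 5 of 7 patients were above the highest ctrl dog, whereas at 6 months the patients lay on both sides of the ctrl range, 2 above it and 2 below it. The means were 0.01 ± 0.41 (SD, n = 8), 1.24 ± 0.58 (SD, n = 7) and 0.05 ± 1.13 (SD, n = 7). In 0 vs. ctrl the difference was 1.23 on the log2 scale (SE 0.37), with a limma adjusted p of 0.176. No fold is given, because Cy3, the denominator, cleared background in only 2 ctrl dogs and 1 patient at 0. The exact permutation test (2-sided, 7 against 8 arrays) gave p = 0.000777, a value under 0.05 being found for 12.5% of all tested probes and one as small for 0.722%. *PLSCR4* was among the genes the study picked from these samples, so that its own direction is not independent evidence.

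In 0 vs. 6 months the ratio of *PLSCR4* was 1.19 higher at 0 (SE 0.38, limma adjusted p = 0.452; exact permutation p = 0.0332, where 3.39% of all tested probes had a p under 0.05). Within dogs it was higher before ASIT in 6 of 7 patients, by 1.87, 0.92, 2.45, 1.05, 0.04 and 2.03 in dogs 1, 2, 3, 5, 6 and 7, while dog 4 differed by -0.07. The exact sign-flip test over the 7 dogs gave p = 0.0469, where the smallest possible value is 0.0156, and 5.46% of all tested probes had a p under 0.05. On slide 3, where 2 dogs had both arrays, the means were 0.51 at 0 and -0.88 at 6 months, and on slide 4 they were 1.79 for 2 arrays and -0.69 for 1 array. With slide as a fixed block the difference was 1.83 (limma adjusted p = 0.9999). In 6 months vs. ctrl the difference was 0.04 (SE 0.37, limma adjusted p = 0.986), with 3 of 7 patients at 6 months measured well above background in Cy5.

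The higher ratio of *PLSCR4* at 0 went along with a lower processed signal of the reference channel, a direction that turned in 0 vs. ctrl after quantile normalization. The median processed Cy3 signal was 56.6 in ctrl, 20.2 at 0 and 31.7 at 6 months, and the median processed Cy5 signal was 57.0, 44.7 and 40.2. The reference RNA was the same pool on every array. In 0 vs. ctrl the mean log2 Cy3 signal of the probe was lower by 1.38 (-1.38, exact permutation p = 0.00311) and the Cy5 signal differed by -0.15 (exact permutation p = 0.542), where the median over all tested probes was -0.54 for Cy3 and -0.55 for Cy5 and 31.8% of them had a lower Cy3 difference. The other members varied. In 0 vs. ctrl the *XKR8* probe differed by -1.96 in Cy3 and -1.17 in Cy5, and the second *ANO6* probe by -0.41 and -0.79. *PLSCR1* (LOC611500) differed by -0.10 in Cy3 and 0.11 in Cy5, and the brighter *ANO6* probe by 0.05 and -0.15. For *PLSCR3* in 0 vs. ctrl and *XKR8* in 6 months vs. ctrl both channels were lower together. The *PLSCR3* probe differed by -1.23 in Cy3 and -1.05 in Cy5 in 0 vs. ctrl (exact permutation p = 0.000932 and 0.00357), and its ratio by 0.18. The *XKR8* probe differed by -1.22 in Cy3 and -1.32 in Cy5 in 6 months vs. ctrl (exact permutation p = 0.00482 and 0.0135), and its ratio by -0.10. For *PLSCR4* in 0 vs. 6 months the Cy3 difference was -0.78, lower than in all but 2.94% of tested probes, and the Cy5 difference was 0.41. The part of the dim reference signal in the ratio was not tested. With background corrected by normexp, whose offset of 50 in both channels makes ratios of dim probes smaller, the difference in 0 vs. ctrl was 0.12 (SE 0.05, limma adjusted p = 0.6) and still passed unadjusted. In 0 vs. 6 months it was 0.07 (SE 0.05) and did not pass. Quantile-normalized Cy5 signals without the reference gave 1.59 in 0 vs. ctrl (limma adjusted p = 0.0167), 1.18 in 6 months vs. ctrl (adjusted p = 0.0578) and 0.41 between the time points of ASIT (adjusted p = 0.823), a setting in which 21.1% of all tested probes were called in 0 vs. ctrl. The quantile-normalized Cy3 signal of the same probe, from the same pool on every array, was also higher, by 0.62 in 0 vs. ctrl (limma adjusted p = 0.119) and by 1.105 in 6 months vs. ctrl (adjusted p = 0.00935); 46% and 44.4% of all tested probes were called in that channel. Between the time points it differed by -0.49 (adjusted p = 0.417).

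**Figure D2:**
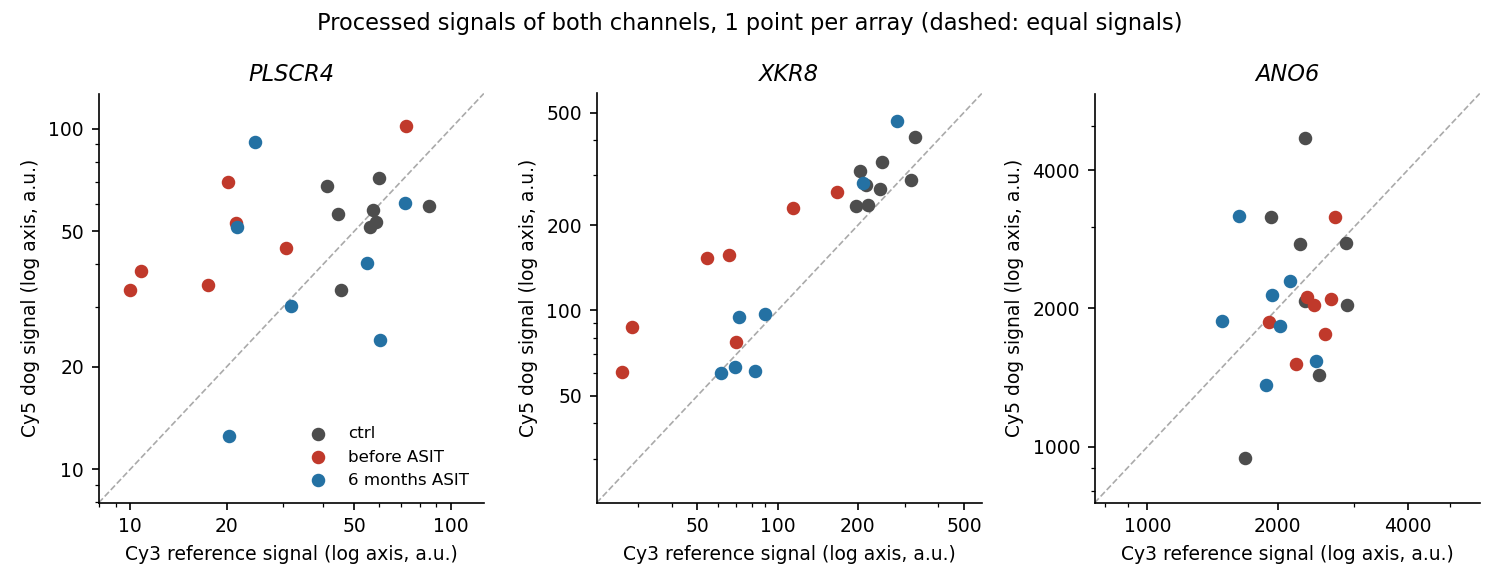
Processed signal of the dog RNA (Cy5, vertical log axis, arbitrary units) against that of the reference (Cy3, horizontal log axis, arbitrary units) for *PLSCR4*, *XKR8* and the brighter *ANO6* probe, 1 point per array; points above the dashed line have a ratio over 1. For *PLSCR4* and *XKR8* the arrays at 0 (red) lie mainly to the left of the ctrl arrays (gray), with a lower Cy3 signal.

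The ratio of *XKR8* ranged from -0.13 to 0.61 (median 0.28) in ctrl, from 0.15 to 1.62 (median 1.22) at 0 and from -0.43 to 0.74 (median 0.12) at 6 months. At 0, 6 of 7 patients were above the highest ctrl dog, and dog 4 was within the ctrl range. The means were 0.26 ± 0.23 (SD, n = 8), 1.06 ± 0.51 (SD, n = 7) and 0.16 ± 0.39 (SD, n = 7). The difference was 0.80 in 0 vs. ctrl (SE 0.20, limma adjusted p = 0.124, exact permutation p = 0.00249, as small in 1.65% of tested probes). In 0 vs. 6 months it was 0.90 (SE 0.21, limma adjusted p = 0.182, exact permutation p = 0.00583, as small in 0.322% of tested probes). In 6 months vs. ctrl it was -0.10 (SE 0.20, limma adjusted p = 0.922). No fold is given, because Cy3 cleared background in only 4 of 7 patients at 0.

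Within dogs the *XKR8* ratio was higher before ASIT in 7 of 7 patients, by 0.04 in dog 4 to 2.05 in dog 6 (mean 0.90 ± 0.74, SD, n = 7). A higher value before ASIT in all 7 dogs was found for 0.871% of all tested probes. The exact sign-flip p was 0.0156, the smallest this test can give, and 0.811 after adjustment over all tested probes. The difference was smaller where arrays of both time points shared a slide: 0.24 on slide 3 and 0.43 on slide 4. With slide as a fixed block it was 0.32 (SE 0.30, limma adjusted p = 0.9999), and in the 3 dogs with both arrays on 1 slide 0.53 (SE 0.26).

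For *XKR8*, too, the median signal of the reference channel was lower at 0 than in ctrl, and so was that of the dog channel. The median Cy3 signal was 231 in ctrl, 65.8 at 0 and 81.9 at 6 months, and the median Cy5 signal was 283, 153 and 94.5. Cy3 was well above background in 8 of 8, 4 of 7 and 6 of 7 arrays. In 0 vs. ctrl the mean log2 Cy3 signal differed by -1.96 (exact permutation p = 0.000155, the smallest this design can give). A lower difference was found for 21.5% of all tested probes. The Cy5 signal differed by -1.17 (exact permutation p = 0.000622). In 0 vs. 6 months the mean log2 Cy3 signal differed by -0.75 (exact permutation p = 0.156), lower than in all but 3.43% of tested probes. The Cy5 signal differed there by 0.15 (exact permutation p = 0.773). The direction of the 0 vs. ctrl difference turned in the Cy5 channel alone after quantile normalization, which gave -0.50 (limma adjusted p = 0.153), where the reference channel gave -0.96 (adjusted p = 0.000127). For 0 vs. 6 months Cy5 gave 0.06 and the reference channel -0.55 (limma adjusted p = 0.0862). With normexp the differences were 0.07 (SE 0.06) and 0.11 (SE 0.06). The part of the reference channel in the ratio was not tested. Leaving out dog 1 at 0 gave a difference of 0.87 in 0 vs. ctrl with a limma adjusted p of 0.0458, in a fit that called 440 probes in place of 16.

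**Figure D3:**
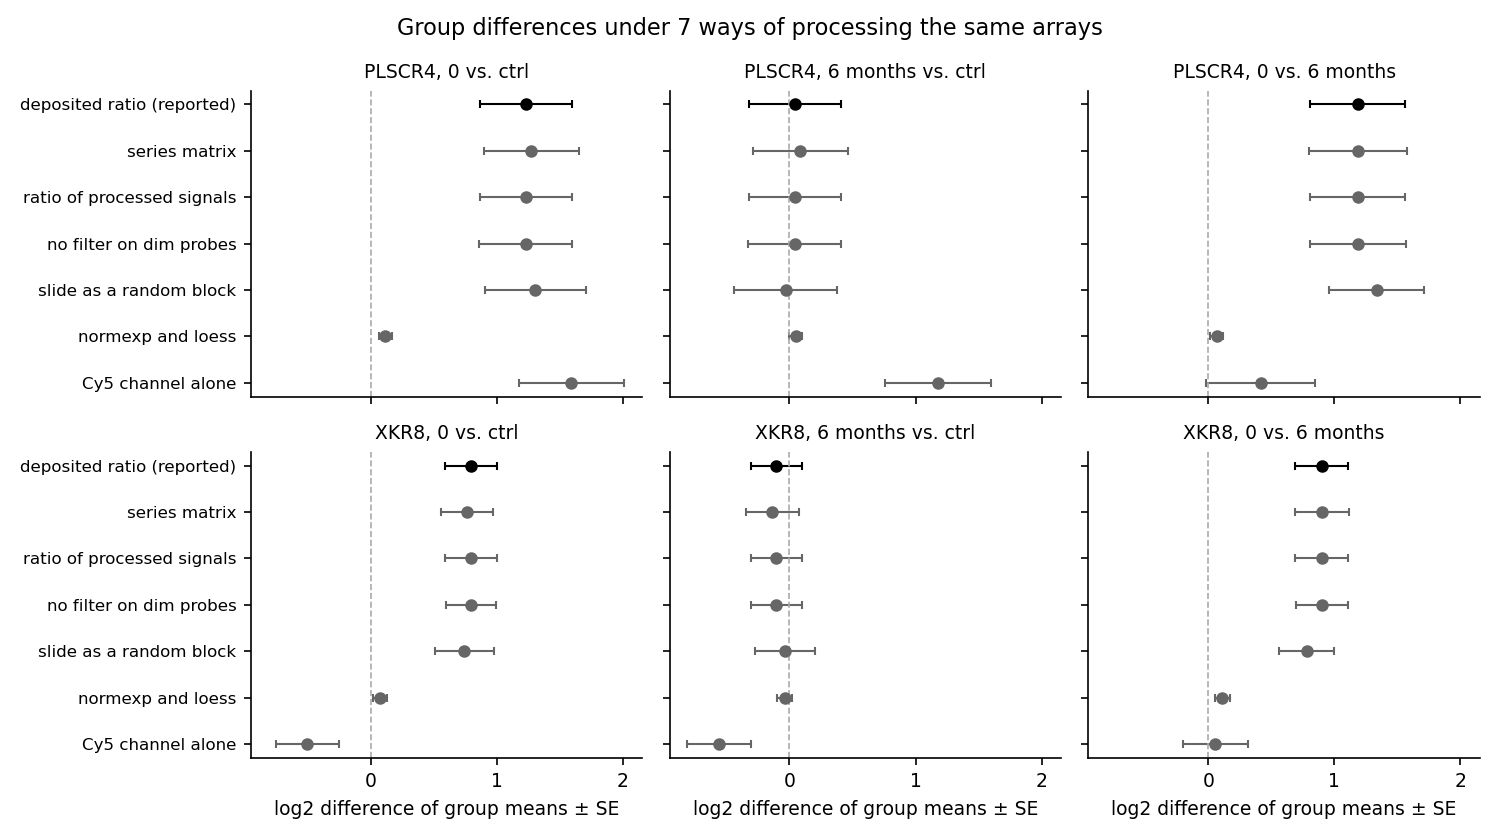
Difference of group means (log2 scale, ± SE, horizontal axis) for *PLSCR4* and *XKR8* in the 3 comparisons, under the deposited ratio (top, black) and under other ways of processing the same 22 arrays (gray). With normexp, whose offset makes ratios of dim probes smaller, the differences and their SE are both smaller, and in the Cy5 channel alone *XKR8* lies below 0 in 0 vs. ctrl.

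The remaining probes differed less between groups. The ratio of *PLSCR1* (LOC611500) was 0.01 ± 0.43 in ctrl (SD, n = 8), 0.22 ± 0.53 at 0 and -0.11 ± 0.70 at 6 months (SD, n = 7 each), with every comparison at a limma adjusted p of 0.823 or more. Its highest value was that of dog 2 at 0 (1.28), and the groups overlapped. The median at 0 was -0.10, and without that array the difference in 0 vs. ctrl was 0.03 in place of 0.21. *PLSCR3* was 0.16 ± 0.21 in ctrl (SD, n = 8), 0.34 ± 0.22 at 0 and 0.26 ± 0.18 at 6 months (SD, n = 7 each), and all 14 cAD arrays had a ratio above 0, from 0.07 to 0.77, where the ctrl dogs ranged from -0.09 to 0.46. The difference in 0 vs. ctrl was 0.18 (SE 0.13, limma adjusted p = 0.644), and it was -0.01 with normexp and -0.08 in Cy5 alone.

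Both probes of *ANO6* had their lowest mean at 0, and the groups overlapped. The brighter probe averaged -0.04 ± 0.68 in ctrl (SD, n = 8), -0.24 ± 0.28 at 0 and 0.04 ± 0.54 at 6 months (SD, n = 7 each), and the ctrl dogs alone covered -0.83 to 1.02. The second probe averaged 0.08 ± 0.38 in ctrl, -0.29 ± 0.39 at 0 and 0.01 ± 0.23 at 6 months. Its difference in 0 vs. ctrl was -0.37 (SE 0.19, limma adjusted p = 0.44; exact permutation p = 0.083), with 3 of 7 patients at 0 below the lowest ctrl dog. In the Cy5 channel alone that difference was -0.64 with a limma adjusted p of 0.0251, and the reference channel of the same probe differed by -0.31 (adjusted p = 0.00252), in a channel where 46% of all tested probes were called. Both probes gave a negative difference in 0 vs. 6 months (-0.27 and -0.30), with lower values before ASIT in 5 of 7 dogs for each probe and an exact sign-flip p of 0.0938 and 0.219. Where arrays of both time points shared a slide, the brighter probe differed by -0.01 on slide 3 and 0.13 on slide 4, and the second by 0.01 and -0.01. Of 10 platelet marker genes, 6 were tested with 8 probes, and *PF4*, *GP1BB*, *GP6* and *TUBB1* had no tested probe. In 0 vs. ctrl 3 of the 8 probes passed unadjusted, all lower at 0, as did 7.93% of all tested probes, and in the other comparisons 0 of 8 passed. The mean log2 ratio per array ran from -0.75 to 0.71 (median 0.21) in ctrl, from -1.09 to 0.25 (median -0.41) at 0 and from -0.83 to 0.62 (median -0.17) at 6 months, and the part of platelets in the *ANO6* values was not tested.

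**Figure D4:**
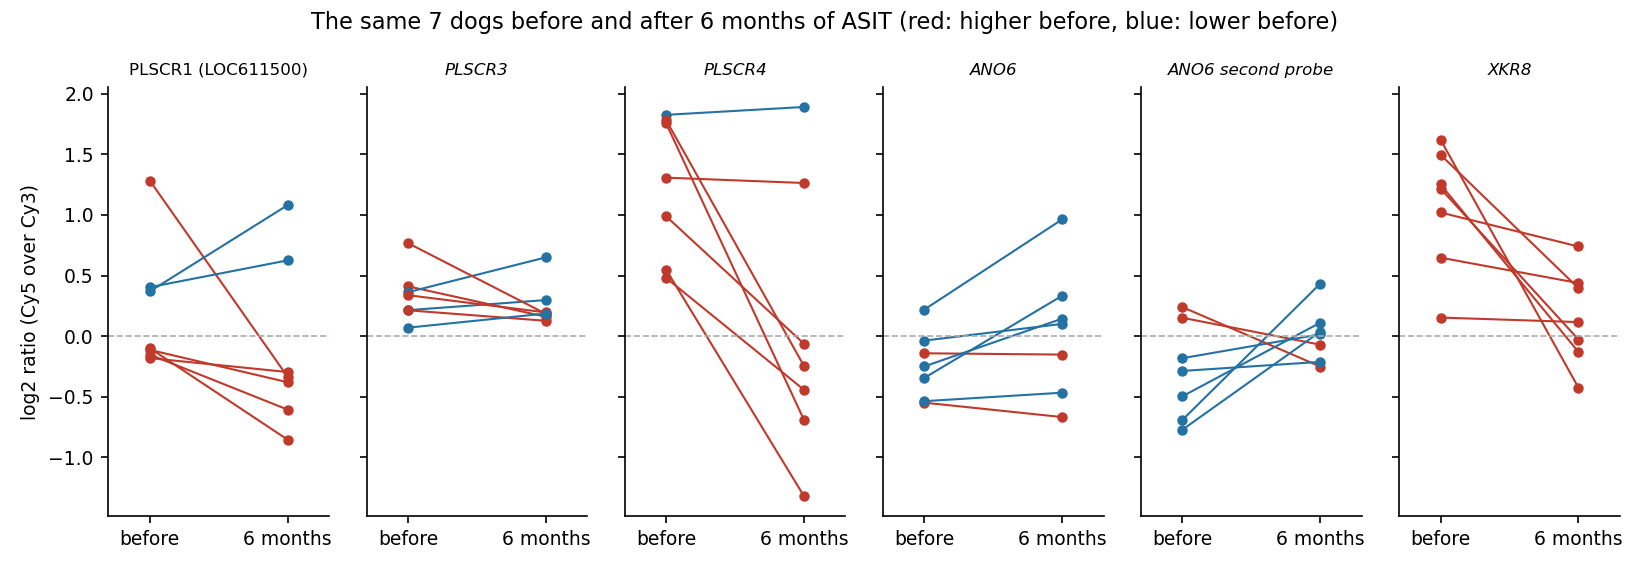
The log2 ratio (vertical axis) of each scramblase probe in the same 7 patients at 0 and at 6 months, 1 line per dog; red lines were higher before ASIT and blue lines lower. All 7 lines of *XKR8* and 6 of 7 of *PLSCR4* fall, while 5 of 7 of each *ANO6* probe climb.

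The partners named for the PLSCR proteins were compared by their brightest probe. *SLPI* had a ratio of 0.23 ± 0.24 in ctrl (SD, n = 8), 0.76 ± 0.17 at 0 and 0.77 ± 0.39 at 6 months (SD, n = 7 each), a difference of 0.53 in 0 vs. ctrl (limma adjusted p = 0.182) and 0.54 in 6 months vs. ctrl (adjusted p = 0.602). The exact permutation p was 0.000622 and 0.00932, beside 12.5% and 10.5% of all tested probes with a p under 0.05. The other *SLPI* probe differed by 0.72 and 1.05. In 0 vs. 6 months *SLPI* differed by -0.01 on its brightest probe and by -0.34 on the other, where *PLSCR4* differed by 1.19. *CD4* was 0.24 ± 0.25 in ctrl, 0.34 ± 0.84 at 0 and 0.57 ± 0.19 at 6 months, with no call by limma; its exact permutation p in 6 months vs. ctrl was 0.0109, unadjusted. Across dogs of 1 group, *PLSCR4* and *SLPI* gave Pearson's r = 0.07 in ctrl, 0.23 at 0 and 0.29 at 6 months, with exact permutation p = 0.868, 0.598 and 0.534 and Spearman's rho of -0.07, -0.07 and 0.18 (exact permutation p = 0.882, 0.906 and 0.713). Without the 2 arrays farthest from the median of *SLPI*, r was 0.10, -0.52 and 0.10.

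*PLSCR1* is itself an interferon-stimulated gene, and its probe was set against the mean of 20 other genes of that response, of which 18 had a name on the array. Pearson's r was 0.76 in ctrl (exact permutation p = 0.0497), -0.31 at 0 (exact permutation p = 0.456) and -0.64 at 6 months (exact permutation p = 0.117). Spearman's rho was 0.40, -0.32 and -0.32 (exact permutation p = 0.327, 0.498 and 0.498). Without the 2 arrays farthest from the median of the mean, r was 0.34 in ctrl, so that this relation rests on those arrays, and -0.81 and -0.57 in the others. After Benjamini-Hochberg adjustment over these 6 relations the smallest p was 0.298 for r and 0.906 for rho.

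The genes whose ratio was most like that of *PLSCR4* over the 22 arrays were *TMEM65* (r = 0.74), *CTDSPL2* (r = 0.71) and *SLC23A3* (r = 0.71), and those most like *PLSCR1* (LOC611500) were *ATP6V1B2* (r = 0.78), *IL1R2* (r = 0.76) and *BST1* (r = 0.74). The median r over the 14732 and 14733 probes compared was 0.06 and 0.03, and all ratios share the Cy3 reference and the brightness of their array. These values pool groups whose means differ. Within ctrl, 0 and 6 months, *TMEM65* had r = 0.07, 0.82 and 0.84 with *PLSCR4*, *CTDSPL2* 0.36, 0.72 and 0.64, and *SLC23A3* 0.29, 0.49 and 0.70. For the 3 genes most like *PLSCR1* (LOC611500) the r within groups ran from 0.56 (*IL1R2* in ctrl) to 0.94 (*IL1R2* at 6 months). Among the members, *PLSCR4* had r = 0.34 with *XKR8* and r = 0.34 with *PLSCR1* (LOC611500) over all arrays. Within ctrl, 0 and 6 months r was 0.20, 0.06 and -0.57 with *XKR8*, and 0.13, -0.26 and 0.52 with *PLSCR1* (LOC611500), so that the sign turned within groups.

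Other genes of lipid asymmetry and of its readout were described by fixed lists, and none of their probes was called in any comparison. The P4-ATPase flippases and their CDC50 subunits, only some of which return phosphatidylserine to the inner leaflet, had 24 tested probes. Their median difference was -0.01 in 0 vs. ctrl and 0.13 in 0 vs. 6 months, where all tested probes had medians of -0.02 and -0.01. The flippase *ATP11B* differed by 0.50 in 6 months vs. ctrl (SE 0.16, limma adjusted p = 0.62), and the subunit *TMEM30B* by 0.60 in 0 vs. 6 months (SE 0.22, adjusted p = 0.602), with Cy5 well above background on 10 arrays.

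Of the other anoctamins, relatives of ANO6 that include chloride channels, 9 probes were tested and 5 passed an unadjusted p under 0.05 in 0 vs. ctrl, 2 higher and 3 lower at 0, where 3.81% and 7.93% of all tested probes did so. In 6 months vs. ctrl 4 of the 9 passed unadjusted and in 0 vs. 6 months 1, beside 7.2% and 5.96% of all tested probes. In 0 vs. ctrl *ANO3* differed by -1.42 (SE 0.41, limma adjusted p = 0.17) with Cy5 well above background on 14 arrays, and *ANO2* by 1.11 (SE 0.35, adjusted p = 0.197) on 10 arrays. Among the relatives of *XKR8*, *XKR9* differed by -0.86 in 0 vs. ctrl (SE 0.33, adjusted p = 0.276), with Cy5 well above background on 11 arrays. The scramblases of the endoplasmic reticulum and autophagosome had 6 probes with a median of -0.14 in 0 vs. ctrl and -0.24 in 6 months vs. ctrl, where *TMEM41B* differed by -0.44 (adjusted p = 0.681) and *VMP1* by -0.31 (adjusted p = 0.748).

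Receptors and bridging molecules that recognize exposed phosphatidylserine had 11 tested probes with a median of -0.03 in 0 vs. ctrl. The phosphatidylserine receptor *TIMD4* averaged -0.01 ± 0.20 in ctrl (SD, n = 8), -1.50 ± 0.86 at 0 and -0.15 ± 0.69 at 6 months (SD, n = 7 each), a difference of -1.48 in 0 vs. ctrl (SE 0.31, limma adjusted p = 0.0829) and -1.34 in 0 vs. 6 months (SE 0.32, adjusted p = 0.197), with Cy5 well above background on 11 of 22 arrays. The scavenger receptor *STAB1* differed by 0.76 in 0 vs. ctrl (SE 0.26, adjusted p = 0.22), also with 11 arrays well above background. The interferon-stimulated genes had 26 tested probes, of which 2 passed unadjusted in 0 vs. ctrl and 3 in 6 months vs. ctrl, all lower in the cAD patients, as were 7.93% and 3.12% of all tested probes. Their median was -0.36 in 0 vs. ctrl and -0.41 in 6 months vs. ctrl. *HERC5* differed by -1.29 in 0 vs. ctrl (adjusted p = 0.176, Cy5 well above background on 13 arrays) and *IFI44L* by -1.05 in 6 months vs. ctrl (adjusted p = 0.62).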

How the data were processed

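Whole blood RNA of 22 samples was hybridized on Agilent Canine (V2) 4 × 44 K two-color arrays, Cy5 for the dog and Cy3 for the common reference. Per the labels, the authors extracted signals with Agilent Feature Extraction 10.7.3.1, while the file headers name 10.10.1.1; background was subtracted and dyes were Lowess-normalized. The deposited values are log10 ratios of Cy5 over Cy3, which were converted to log2. Signal intensities, raw and processed, and flags were deposited by the authors for every spot. Control spots and outlier-flagged spots were left out and spots of a probe were averaged.

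The 38287 probes whose Cy5 flag was positive on 7 arrays or more were fitted with limma 3.58.1 (R 4.3.3) over the 3 groups, with Benjamini-Hochberg adjustment at 0.05 over all of them. The study's methods name a one-way test, which was an alternative. Single probes were compared by exact 2-sided permutation of the mean difference (18 tests of the probes; unadjusted unless stated), and dogs by exact sign-flip (6 tests), without adjustment over the members. Probes with all their spots flagged on at least 1 array were not part of the permutation background, which held 38215 probes. The limma fit was tested on simulated data: of 200 probes changed by 2 on the log2 scale it recovered 190 in 0 vs. ctrl. The simulated arrays were independent, without slide or scan effects, and the change was larger than any member difference. This recovery therefore gives no power for the member probes. The unpaired permutation code was checked against that of scipy; the sign-flip code was not checked separately. The number of arrays limits precision.

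The 0 and 6 months samples of a number come from the same dog per the labels, so that these numbers pair them; the correlation of their deviations ran from -0.04 to 0.56, and for dogs 3, 5 and 6 (0.165, 0.334 and -0.0358) the highest correlation with another dog's array was larger (0.207, 0.473 and 0.325). The members and lists were chosen with earlier results of these data known. All member probes were described; other genes were named by brightest probe (partners) and, from each list, the 2 genes with the smallest unadjusted p, of which 1 is not reported here; for likeness, the 3 genes with the highest Pearson r among probes with that flag on 15 arrays or more. Series matrix values of the ctrl arrays correlated with the scanner ratios at r = 0.711 to 0.844, so that their scale and centring are unknown; those of the cAD arrays equaled the scanner ratios.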

Additional observations from a re-analysis of the deposited data

Results flagged for a closer look

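In groups of 7 or 8 arrays, a sample was singled out when its gap to the nearest other sample was large against the range of its group, which chance does in about 1 in 20 groups; 18 groups were examined. The ratio of *PLSCR1* (LOC611500) in dog 2 at 0 was 1.28, where the next value was 0.40. The ratio of *PLSCR3* in dog 3 at 6 months was 0.65, where the next value was 0.30.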

How the results depend on the processing

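No member probe was called with the deposited ratio, and 0 were called under the other ratios and filters. Among these, the strict filter tested only 2 member probes, both of *ANO6*. In the Cy5 channel alone 2 member probes were called in 0 vs. ctrl, *PLSCR4* (1.59) and the second *ANO6* probe. Without replicate 1 at 0 the count was 1 (*XKR8*), and over all arrays left out in turn it ran from 0 to 1. Probes called in 0 vs. ctrl numbered 16, against 9 with the series matrix, 8092 in Cy5 alone, and 0 with normexp, with the strict filter, with slide as a random block and under the one-way test named in the methods; in 6 months vs. ctrl 5947 were called in Cy5 alone and 0 otherwise, and in 0 vs. 6 months 1 without a filter. Leaving out 1 array gave 0 to 440, 0 to 2 and 0 to 103 calls in the 3 comparisons.

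Directions turned for small differences and for *XKR8*. In Cy5 alone *XKR8* was -0.50 and *PLSCR3* -0.082 in 0 vs. ctrl, and *ANO6* was -0.13, *PLSCR1* (LOC611500) 0.060 and *PLSCR3* -0.093 in 6 months vs. ctrl. With normexp *PLSCR3* was -0.011 in 0 vs. ctrl, and *PLSCR1* (LOC611500) was 0.037 and *PLSCR3* -0.024 in 6 months vs. ctrl. With slide as a random block *PLSCR4* was -0.031 in 6 months vs. ctrl. In 0 vs. 6 months a fixed slide block gave 0.045 for *ANO6*, 0.0015 for its second probe and -0.070 for *PLSCR3*, and the 3 dogs with both arrays on 1 slide gave 0.17 for the second *ANO6* probe and -0.040 for *PLSCR3*. Leaving out 1 array gave -0.26 to 0.27 for *PLSCR4*, -0.077 to 0.23 for *ANO6*, -0.14 to 0.038 for its second probe and -0.32 to 0.0076 for *PLSCR1* (LOC611500) in 6 months vs. ctrl. The cause was not tested. The median processed Cy5 signal of *PLSCR4* was 52.2, while the offset of 50 in normexp is added to the background-corrected raw signal, which is on another scale. An offset in both channels makes ratios of dim probes smaller, and its part in the *PLSCR4* values was not tested. With dog as a replicate block the difference of *PLSCR4* in 0 vs. 6 months was 1.19 (adjusted p = 0.702), and the block changed no call.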
